A study of Mus musculus with 6 samples.

Results

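The machinery that copies DNA and supplies its nucleotides was examined in primary mouse uterine stromal cells (mUSCs) with and without Pbrm1. A set of 48 genes, of 54232 in the count table, was taken by symbol and sorted by the step at which each acts. These steps were origin recognition (6 genes), licensing (3), the MCM2-7 helicase (6), helicase activation (8), polymerases and primase (9), clamp and clamp loader (6), single-strand binding (3), Okazaki fragment maturation (2) and dNTP supply (5). A wider set of 92 genes of replication, nucleotide metabolism and G1/S control was read beside them. The mUSCs came from mice of 8-12 weeks on day 4 (D4) of pseudopregnancy. One group is labelled WT and the other Pbrm1 cKO, with 3 RNA-seq libraries each. In the study the deletion came from PR-IRES-cre acting on floxed Pbrm1, and its controls carried the floxed alleles, so the label WT may stand for such animals. PR-IRES-cre acts wherever the progesterone receptor gene is active, which includes uterine cells other than stroma. The protocol describes 5-10 uterine horns pooled in a preparation (the labels name WT horns and the study's methods both genotypes), and all cells spent some hours in medium with serum before lysis. Whether each library came from a separate preparation is not given in the labels, so the p-values measure the spread between these libraries. That spread was unequal. The median squared difference between 2 libraries, relative to counting noise, was 3.68 to 7.96 within WT and 1.55 to 2.54 within Pbrm1 cKO. The test shares an estimate of spread per gene between the groups.

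Replication begins in G1, when the origin recognition complex (ORC) with CDC6 and CDT1 loads the ring-shaped MCM2-7 helicase on DNA. At the start of S phase the kinase CDC7-DBF4, MCM10, CDC45 and the GINS complex turn the loaded rings into working helicases, and the polymerases follow behind them. Ribonucleotide reductase, thymidylate synthase and thymidine kinase make the deoxynucleotides (dNTPs) that the polymerases use. Many of these genes are transcribed through E2F transcription factors and peak at the G1/S boundary. In the mouse uterus, stromal cells divide before the embryo attaches and go on to divide as they become decidual cells.

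Total counts ranged from 13253575 to 18338667 per library. Pbrm1, the deleted gene, had 1354, 1385 and 1677 normalised counts in WT, against 397, 459 and 451 in Pbrm1 cKO (log2 fold change -1.76, DESeq2 adjusted p = 5.19e-40). Of 14 stromal markers, 9 were lower, among them Vim and Hand2, 1 was higher (Pdgfra) and 4 were not called, and their sums were 122333 to 145899 normalised counts in WT, against 93803 to 100860 in Pbrm1 cKO. Of the 16 leukocyte markers, 13 were tested and 12 of these rose. The sum of all 16 went from 4320, 9427 and 9056 in the WT libraries to between 40110 and 41706 in Pbrm1 cKO. The T cell, B cell and NK cell markers Cd3e, Cd79a, Nkg7 and Klrb1c stayed at or below 10.9 normalised counts in each library, and Cd3g went from at most 3.21 to between 24.7 and 32.0. Summed epithelial markers (16 genes, 15 tested, 5 of them higher) were 1973 to 3539 against 3914 to 4074. Endothelial markers (4 of 12 lower, 1 higher) summed to 3537 to 7239 in WT and 3182 to 3787 in Pbrm1 cKO, and smooth muscle markers (5 of 10 tested lower, 0 higher) to 56817 to 61752 and 53911 to 55927. Among the WT libraries, replicate 1 had the lowest sums of leukocyte, epithelial and endothelial markers. The part of these other cells in the values of the replication genes was not tested, and in bulk RNA fewer cells of a type and less RNA per cell cannot be told apart.

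All 48 genes passed the filter on low counts, and 42 of them were downregulated in Pbrm1 cKO at an adjusted p of 0.05 (DESeq2, Benjamini-Hochberg over 17474 genes). Among all genes tested, 15.2% were called lower and 15.9% higher. Only Orc5 was higher, and Orc3, Cdt1, Rfc1, Rfc4 and Rpa3 were not called. The median log2 fold change over the 48 genes was -0.69, beside -0.00 over all genes tested, and the median of the Pbrm1 cKO levels, each as a percent of WT, was 61.8%. In 46 genes the highest Pbrm1 cKO value was under the lowest WT value, as in 24.6% of all genes tested. The exceptions were Orc5, with the opposite order, and Rfc1, whose groups overlapped.

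The genes together took 0.245% to 0.251% of all counts in the WT libraries, against 0.156% to 0.160% in the Pbrm1 cKO libraries. Their summed level was 36217 to 37270 normalised counts in WT, against 22773 to 23129 in Pbrm1 cKO. Neither group had a library that stood apart in this sum, WT replicate 1 included. The heat map of the genes by library shows the 6 libraries side by side.

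**Figure D1:**
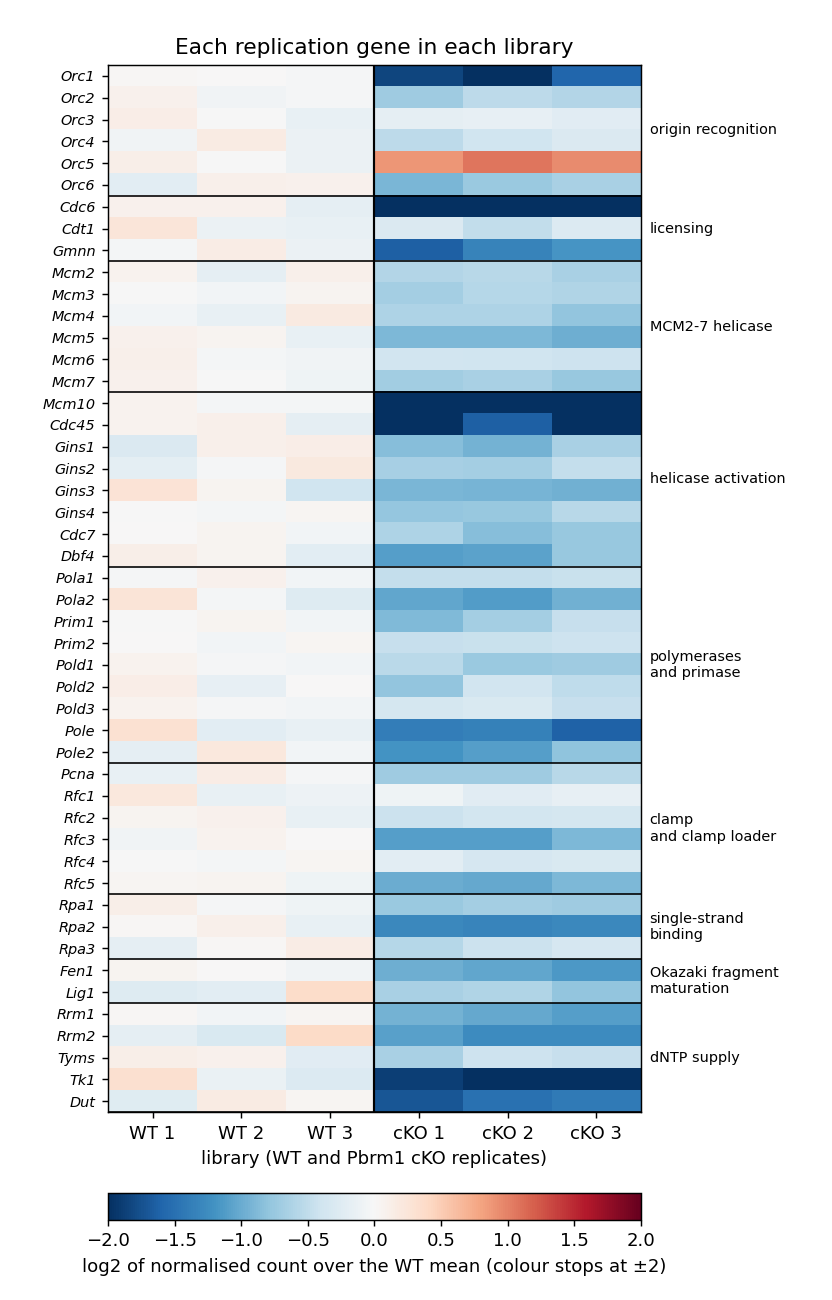
Normalised count of each of the 48 replication genes (rows, by step) in each of the 3 WT and 3 Pbrm1 cKO libraries (columns), as log2 of the value over the gene's WT mean, with the colour scale ending at ±2. The right-hand columns are blue (lower) in nearly every row, Orc5 is the one red row, and Orc3, Rfc1 and Rfc4 are pale.

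The size of the difference varied among the steps. The median log2 fold change was -1.37 for licensing, -1.20 for dNTP supply, -0.87 for helicase activation, -0.86 for Okazaki fragment maturation, -0.71 for single-strand binding, -0.66 for polymerases and primase, -0.65 for the MCM2-7 helicase, -0.52 for clamp and clamp loader and -0.50 for origin recognition. These medians rest on 2 to 9 genes each, and the differences between steps were not tested. Within 5 of the 9 steps, the range over single genes was wider than the range over the medians of the steps. The level in Pbrm1 cKO was at or below 50% of WT in 15 of the 42 downregulated genes and above it in the other 27, with extremes of 12.8% (Cdc6) and 77.2% (Pold3).

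When the test asked for an absolute log2 fold change beyond 0.58, 14 of the 48 genes stayed lower and 0 higher, beside 2.53% of all genes lower (DESeq2, adjusted p of 0.05). The 14 were Orc1, Cdc6, Gmnn, Mcm5, Mcm10, Cdc45, Pole, Rfc3, Rpa2, Fen1, Rrm1, Rrm2, Tk1 and Dut. At least 1 gene of every step was among them. The plot of fold changes by step gives the estimate for each gene with its standard error.

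**Figure D2:**
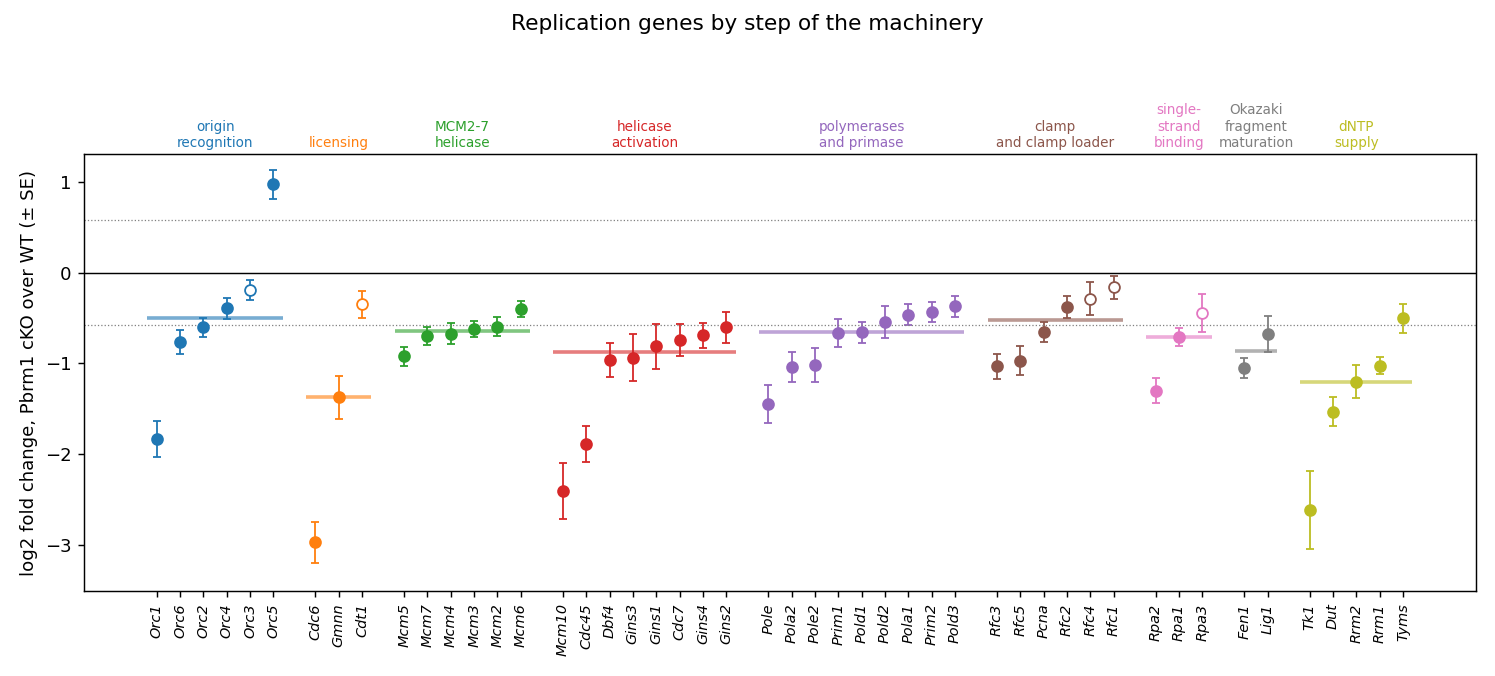
Log2 fold change of each replication gene (Pbrm1 cKO over WT, DESeq2, bars ± SE, n = 3 libraries per group), grouped by step. Filled points passed an adjusted p of 0.05, open points did not, thick lines are the medians of the steps and dotted lines mark ±0.58. Cdc6, Tk1 and Mcm10 are the lowest points and Orc5 is the only point above 0.

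Promoter windows of 300 bases (250 before to 50 after the annotated start, RefSeq sequence on GRCm38.p6) were found for 40 of the 48 genes. They were searched on both strands for E2F-type letters, spelled TTTCCCGC, TTTGGCGC, TTTCGCGC or TTTGCCGC. At least 1 match was present in 15 of the 40 genes (37.5%), beside 2.26% of all 32851 windows and 704 of 27025 genes. Of the MCM2-7 genes, 4 of the 5 with a window held a match, and each of these 4 held at least 2. Both licensing genes with a window, Cdc6 and Cdt1, held 1 each. Among the 40 genes, the median log2 fold change was -0.68 with a match and -0.74 without, a gap that was not tested. The CCAAT box was present in 23 of the 40 (57.5%) and in 41.1% of all genes with a window, and TTTGAA, the core of the cell cycle element called CHR, in 7 (17.5%) and 20.2%. A match describes the letters only, and a window without one may hold other forms of a site.

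Stretches from 180 bases before to 30 bases after the start are shown for 7 genes, 5 with matches and 2 without, each 5′ to 3′ along the gene with E2F-type letters in capitals. Mcm5 (chr8:75109329-75109538, plus strand) and Mcm6 (chr1:128359676-128359885, minus strand) each hold a pair of overlapping matches on opposite strands, and Mcm6 has a further one nearer the start. Rfc3 (chr5:151651179-151651388, minus strand) has its matches on either side of the start. Orc1 (chr4:108579274-108579483, plus strand) and Cdc6 (chr11:98907971-98908180, plus strand) have a single match each. Mcm10 (chr2:5012762-5012971, minus strand), whose transcript fell among the most, and Orc5 (chr5:22550309-22550518, minus strand), whose transcript rose, have no match.
Mcm5: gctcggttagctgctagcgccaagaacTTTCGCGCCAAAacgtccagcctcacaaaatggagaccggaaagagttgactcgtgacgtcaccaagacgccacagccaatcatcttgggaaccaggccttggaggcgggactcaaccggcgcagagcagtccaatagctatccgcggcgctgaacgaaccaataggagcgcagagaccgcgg
Mcm6: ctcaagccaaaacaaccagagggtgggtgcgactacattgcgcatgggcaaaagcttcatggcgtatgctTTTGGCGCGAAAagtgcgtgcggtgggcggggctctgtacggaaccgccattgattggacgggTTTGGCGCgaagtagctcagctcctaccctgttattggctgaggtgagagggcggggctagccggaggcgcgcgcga
Rfc3: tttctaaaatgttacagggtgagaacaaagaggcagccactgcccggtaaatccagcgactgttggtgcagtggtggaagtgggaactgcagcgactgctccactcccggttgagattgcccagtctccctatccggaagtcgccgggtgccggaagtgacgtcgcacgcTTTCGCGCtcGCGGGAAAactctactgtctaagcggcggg
Orc1: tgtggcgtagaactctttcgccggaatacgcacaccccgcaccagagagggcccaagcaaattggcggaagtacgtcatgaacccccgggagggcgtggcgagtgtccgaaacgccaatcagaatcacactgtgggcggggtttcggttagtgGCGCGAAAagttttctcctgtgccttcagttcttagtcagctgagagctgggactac
Cdc6: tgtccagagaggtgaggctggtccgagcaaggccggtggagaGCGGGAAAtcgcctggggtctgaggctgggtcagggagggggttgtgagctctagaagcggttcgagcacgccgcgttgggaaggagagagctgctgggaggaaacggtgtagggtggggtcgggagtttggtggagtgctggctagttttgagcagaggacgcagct
Mcm10: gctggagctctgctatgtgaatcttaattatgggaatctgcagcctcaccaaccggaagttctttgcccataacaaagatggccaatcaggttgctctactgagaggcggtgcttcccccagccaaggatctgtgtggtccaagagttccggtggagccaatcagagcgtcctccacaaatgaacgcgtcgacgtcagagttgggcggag
Orc5: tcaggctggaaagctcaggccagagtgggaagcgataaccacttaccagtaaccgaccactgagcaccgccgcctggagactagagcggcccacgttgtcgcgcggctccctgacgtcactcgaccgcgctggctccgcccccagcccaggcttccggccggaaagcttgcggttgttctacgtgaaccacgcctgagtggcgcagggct

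The first step is the marking of origins by ORC, a complex of 6 subunits. Orc1, the subunit that is made anew in each cell cycle, had 239, 239 and 232 normalised counts in WT, against 66.1, 55.1 and 78.8 in Pbrm1 cKO. The groups lay far apart, and the WT values were almost equal (log2 fold change -1.83, SE 0.20, adjusted p = 1.48e-18). Orc5, another ATPase-fold subunit, went the other way, from 161, 148 and 136 to 272, 312 and 286. It rose to 196% of WT in the ratio of means (log2 fold change 0.97, SE 0.16, adjusted p = 3.50e-08), and all 3 Pbrm1 cKO values lay above all WT values. Orc5 (chromosome 5, 22486485 to 22550429, GRCm38) shares 90 bases of exon, 1.46% of its exonic length, with the predicted gene Gm15421 on the same strand.

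The other ORC subunits moved less. Orc2 fell from 1505 ± 79.1 to 990.0 ± 66.3 normalised counts (SD, n = 3 each; log2 fold change -0.60, adjusted p = 6.96e-08, DESeq2), and Orc6, the smallest subunit, to 58.9% of WT (-0.76, adjusted p = 8.94e-08). Orc4 reached 76.0% of WT (-0.40, adjusted p = 0.00504), and this call was lost without WT replicate 2 (-0.31, adjusted p = 0.0509) or without Pbrm1 cKO replicate 1 (-0.33, 0.0734). Orc3 had 1093, 991 and 896 normalised counts in WT, against 874, 889 and 852 in Pbrm1 cKO (-0.19, adjusted p = 0.207). Its groups were separate but close. Without WT replicate 3, Orc3 passed the threshold (-0.26, adjusted p = 0.0426), and over all settings its log2 fold change ranged from -0.26 to -0.12.

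Per kb of exon, Orc6 (442 normalised counts per kb) and Orc2 (390) were the most abundant ORC transcripts in WT and Orc5 (24.1) the least. In Pbrm1 cKO, Orc1 (19.2 per kb) was below Orc5 (47.1), whereas in WT Orc1 (68.1) was above it. The order of these 2 subunits was reversed in every library of the groups. The ratio of Orc1 to Orc2 per length was 0.175 ± 0.0086 in WT against 0.0751 ± 0.0149 in Pbrm1 cKO (SD, n = 3 each; exact two-sided permutation p = 0.10, the smallest that 3 against 3 can give).

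**Figure D3:**
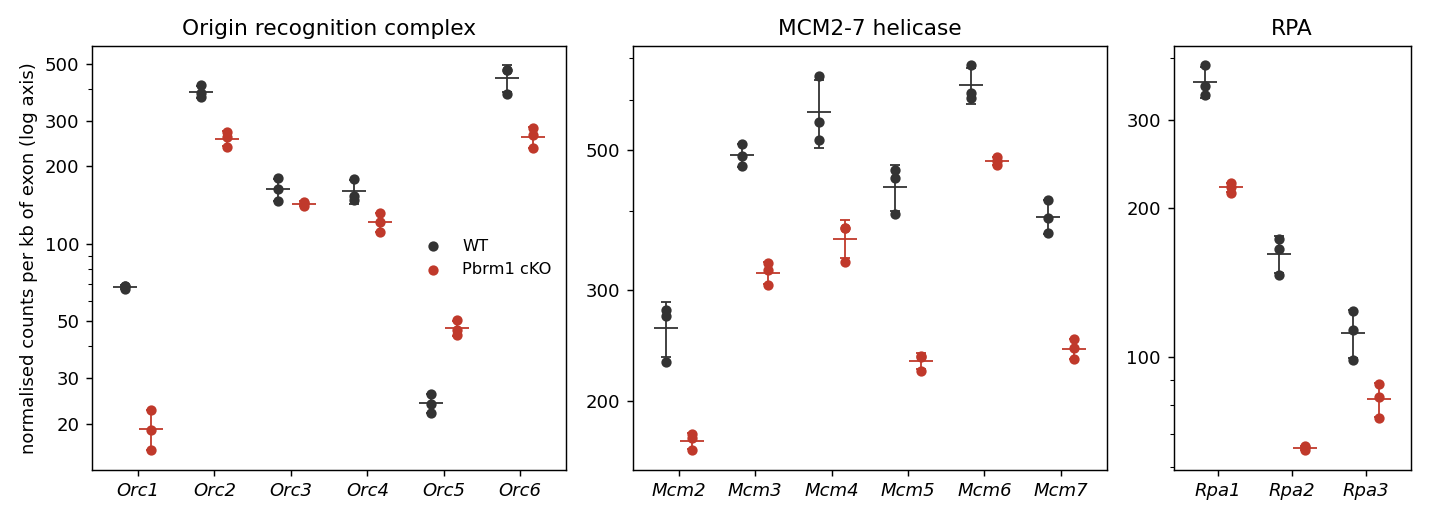
Normalised counts per kb of exon (log axis) for the subunits of ORC, the MCM2-7 helicase and the single-strand binding complex RPA in WT (dark) and Pbrm1 cKO (red), with each of the 3 libraries as a point and mean ± SD as bars. Orc1 and Orc5 change places between the groups, and the MCM and RPA subunits shift down by unequal amounts.

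Licensing depends on CDC6 and CDT1, the loaders of the helicase, and on geminin (Gmnn), the inhibitor that binds CDT1 once S phase has begun. Cdc6 had 263, 264 and 219 normalised counts in WT, against 26.6, 32.0 and 36.6 in Pbrm1 cKO. This was the largest fall of the 48 genes, to 12.8% of WT (log2 fold change -2.97, SE 0.23, adjusted p = 4.02e-36). Gmnn had 128, 145 and 121 normalised counts in WT, against 42.4, 51.9 and 58.2 in Pbrm1 cKO (-1.37, SE 0.24, adjusted p = 1.10e-07). Its groups did not approach each other.

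Cdt1 was the exception in this step, with 592, 461 and 451 normalised counts in WT, against 409, 356 and 415 in Pbrm1 cKO (log2 fold change -0.35, SE 0.15, adjusted p = 0.0635). The groups were separate by a narrow gap, and WT replicate 1 was high. Cdt1 passed the threshold without WT replicate 3 (-0.43, adjusted p = 0.0291) and in edgeR's quasi-likelihood test with no filter (adjusted p = 0.0432). Over all settings its log2 fold change ranged from -0.43 to -0.21. The ratio of Cdt1 to Gmnn per length was 1.79 ± 0.34 in WT against 3.68 ± 0.72 in Pbrm1 cKO (SD, n = 3 each; exact two-sided permutation p = 0.10). The ratio was higher in all 3 Pbrm1 cKO libraries than in any WT library.

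The 6 MCM2-7 subunits form 1 ring and were all downregulated. Mcm5 had 1856, 1805 and 1579 normalised counts in WT, against 938, 940 and 892 in Pbrm1 cKO, the largest fall of the ring (log2 fold change -0.92, SE 0.10, adjusted p = 7.23e-17). Mcm6, the most abundant subunit in counts and per length, fell least, from 3184, 2874 and 2821 to 2272, 2246 and 2211 (-0.40, SE 0.09, adjusted p = 7.17e-05). Both had E2F-type letters in the promoter stretches shown, and 4 of the 5 ring genes with a window held a match. The other subunits lay between, with log2 fold changes of -0.59 (Mcm2), -0.62 (Mcm3), -0.67 (Mcm4) and -0.70 (Mcm7). The levels in Pbrm1 cKO were 52.9% to 75.8% of WT, a spread within 1 complex that was not tested. Mcm7 shares exon bases with the microRNA genes Mir25 and Mir93 that lie within it, 1.90% and 1.99% of its exonic length.

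All 8 factors that activate the ring were downregulated. Mcm10, which is needed for the ring to open and move, had 106, 97.7 and 98.4 normalised counts in WT, against 20.7, 13.6 and 23.5 in Pbrm1 cKO (log2 fold change -2.40, SE 0.31, adjusted p = 3.25e-13). Cdc45, a subunit of the active helicase, had 287, 292 and 240 in WT, against 65.1, 87.9 and 67.6 in Pbrm1 cKO (-1.88, SE 0.20, adjusted p = 1.36e-19). Both genes were below 30% of WT in the ratio of means, at 19.1% and 27.0%. The 4 GINS subunits, which bind CDC45 and the ring, fell less. Their log2 fold changes were -0.81 (Gins1), -0.60 (Gins2), -0.93 (Gins3) and -0.69 (Gins4), and the call of Gins1 was lost without Pbrm1 cKO replicate 2 (-0.74, adjusted p = 0.0618). Cdc7, the kinase that phosphorylates the MCM ring, fell to 59.9% of WT (-0.74, adjusted p = 0.000136). Its activator Dbf4 fell from 251, 241 and 200 to 108, 110 and 137 normalised counts (-0.96, adjusted p = 3.78e-06).

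Each of the 9 genes of polymerases and primase was downregulated. Polymerase alpha with primase lays the primers, polymerase epsilon copies the leading strand and polymerase delta the lagging strand. Pole, the catalytic subunit of epsilon, had 276, 194 and 203 normalised counts in WT, against 85.8, 87.9 and 73.2 in Pbrm1 cKO (log2 fold change -1.45, SE 0.21, adjusted p = 2.43e-10). It had the lowest level in Pbrm1 cKO relative to WT of this step, 36.7%. Pole2, its second subunit, fell to 49.3% of WT (-1.02, adjusted p = 8.60e-07). Pole2 shares 245 bases, 8.50% of its exonic length, with the predicted gene Gm49384.

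Of polymerase alpha, the catalytic Pola1 fell from 584 ± 29.5 to 424 ± 6.0 normalised counts (log2 fold change -0.46, adjusted p = 0.000392) and Pola2 from 474 ± 86.7 to 231 ± 12.5 (-1.04, adjusted p = 6.96e-09; SD, n = 3 each). The primase subunits Prim1 and Prim2 had log2 fold changes of -0.67 and -0.44. The subunits of delta had log2 fold changes of -0.66 for the catalytic Pold1, -0.54 for Pold2 and -0.37 for Pold3. Pold2 lost its call without Pbrm1 cKO replicate 1 (-0.43, adjusted p = 0.108), and Pold3 lost its call without Pbrm1 cKO replicate 3 (-0.33, 0.0682). Of the accessory subunits Pold4, Pole3 and Pole4 and the separate primase-polymerase Primpol, which lie outside the set, 0 of 4 were called by DESeq2, edgeR or limma, and 0 had an unadjusted p under 0.05. Pole3 and Pole4, histone-fold partners of epsilon, had log2 fold changes of -0.19 (adjusted p = 0.233) and -0.04 (0.842). Pold4 had 0.25 (0.235) and Primpol -0.38 (0.339).

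The sliding clamp PCNA and its loader RFC hold the polymerases on DNA. Pcna, the most abundant of the 48 per kb of exon (1048 normalised counts per kb in WT), had 2281, 2795 and 2471 normalised counts in WT, against 1541, 1533 and 1707 in Pbrm1 cKO (log2 fold change -0.66, SE 0.11, adjusted p = 3.86e-08). The pseudogene Pcna-ps2 also had counts, 21.4 in WT and 8.17 in Pbrm1 cKO on average, and reads that fit both copies are left out by the counter's defaults, so the values of near-identical copies are uncertain. The RFC subunits split. Rfc3 had 399, 440 and 422 normalised counts in WT, against 195, 196 and 225 in Pbrm1 cKO (-1.03, SE 0.14, adjusted p = 6.57e-12), and Rfc5 fell to 51.1% of WT (-0.97, adjusted p = 2.87e-08). Rfc2 reached 76.9% of WT (-0.38, adjusted p = 0.00949) and lost its call without WT replicate 2, Pbrm1 cKO replicate 1 or Pbrm1 cKO replicate 2 (adjusted p = 0.068, 0.08 and 0.0679).

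Rfc1, the large subunit that is particular to the PCNA loader, had 1096, 853 and 878 normalised counts in WT, against 884, 805 and 838 in Pbrm1 cKO (log2 fold change -0.16, SE 0.13, adjusted p = 0.377). Its groups overlapped, with Pbrm1 cKO replicate 1 above WT replicates 2 and 3. Rfc4 had 145, 141 and 150 against 125, 115 and 118 (-0.29, SE 0.18, adjusted p = 0.252). The ratio of Pcna to Rfc1 per length was 6.83 ± 1.51 in WT against 4.75 ± 0.37 in Pbrm1 cKO (SD, n = 3 each; exact two-sided permutation p = 0.10). Of the alternative clamp loaders outside the set, Atad5, Chtf18 and Dscc1 were lower (-0.61, -1.01 and -1.47) and Chtf8 was not called (0.04).

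RPA coats the single-stranded DNA behind the helicase. Rpa2 had 494, 518 and 438 normalised counts in WT, against 197, 194 and 198 in Pbrm1 cKO (log2 fold change -1.30, SE 0.14, adjusted p = 5.29e-19). The 3 Pbrm1 cKO values were nearly identical. Rpa1, the large DNA-binding subunit, fell to 61.2% of WT (-0.71, adjusted p = 7.33e-12). Rpa3, the smallest subunit, had 112, 129 and 141 in WT, against 85.8, 94.3 and 100 in Pbrm1 cKO (-0.44, SE 0.21, adjusted p = 0.0939). Its groups were separate, and it passed the threshold with edgeR's quasi-likelihood test (adjusted p = 0.0384) and limma voom (0.037).

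The Okazaki fragments of the lagging strand are trimmed by the flap nuclease FEN1 and sealed by ligase 1. Fen1 had 942, 911 and 865 normalised counts in WT, against 462, 443 and 410 in Pbrm1 cKO (log2 fold change -1.05, SE 0.11, adjusted p = 3.19e-19). Lig1 had 252, 261 and 389 in WT, against 191, 199 and 175 in Pbrm1 cKO (-0.68, SE 0.20, adjusted p = 0.00357). The groups of both genes were separate, and WT replicate 3 was high for Lig1. Beside them, the nuclease Exo1 fell to 14.7% of WT (-2.76, adjusted p = 7.62e-16), while Lig3, the ligase of mitochondria and repair, was at 102% (0.03, adjusted p = 0.906).

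The genes of dNTP supply held some of the largest differences, and all 5 were downregulated. Tk1, the thymidine kinase of S phase, had 86.6, 63.3 and 57.3 normalised counts in WT, against 18.7, 7.19 and 8.44 in Pbrm1 cKO. It was the least abundant of the 48 in mean count and its estimate was the least precise (log2 fold change -2.61, SE 0.43, adjusted p = 1.44e-08). Dut, which removes dUTP and provides dUMP for thymidylate synthesis, had 500, 667 and 611 in WT, against 180, 211 and 222 in Pbrm1 cKO (-1.53, SE 0.16, adjusted p = 4.23e-20). Rrm2, the small subunit of ribonucleotide reductase that is made in S phase, had 835, 762 and 1239 in WT, against 443, 397 and 395 in Pbrm1 cKO (-1.20, SE 0.18, adjusted p = 8.29e-10). WT replicate 3 was high, and the groups were separate with and without it. The large subunit Rrm1 fell from 1952, 1837 and 1959 to 992, 943 and 889 (-1.02, SE 0.10, adjusted p = 6.97e-25).

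Rrm2 and Rrm1 fell side by side. Their ratio per length was 1.95 ± 0.48 in WT against 1.74 ± 0.06 in Pbrm1 cKO (SD, n = 3 each; exact two-sided permutation p = 0.90), and the groups overlapped. Tyms, thymidylate synthase, fell least in this step, from 353, 345 and 280 to 208, 244 and 236 normalised counts (log2 fold change -0.50, SE 0.16, adjusted p = 0.0067). Its call was lost without WT replicate 2 (adjusted p = 0.053) or Pbrm1 cKO replicate 1 (0.0787), and its pseudogene Tyms-ps had a mean of 2.82 normalised counts.

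Counterparts that are used outside S phase were compared with these genes. Rrm2b, the p53-inducible small subunit of ribonucleotide reductase, had 219, 271 and 269 normalised counts in WT, against 350, 341 and 342 in Pbrm1 cKO (log2 fold change 0.44, SE 0.15, adjusted p = 0.0101). It rose where Rrm2 fell, though its call was lost with the trend of gene length removed (0.33, adjusted p = 0.0741) and without Pbrm1 cKO replicate 1 (0.069) or 2 (0.0667). The ratio of Rrm2 to Rrm2b per length was 12.6, 9.28 and 15.2 in WT, against 4.17, 3.84 and 3.81 in Pbrm1 cKO (exact two-sided permutation p = 0.10). Tk2, the mitochondrial thymidine kinase, was not called (0.35, adjusted p = 0.165), and the ratio of Tk1 to Tk2 was 0.307 ± 0.108 in WT against 0.0394 ± 0.025 in Pbrm1 cKO (SD, n = 3 each). Without WT replicate 3, Tk2 was called higher (0.53, adjusted p = 0.0291), and so was the salvage kinase Dck (0.53, 0.00387).

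Topoisomerases and helicase relatives gave further pairs. Top2a, which untangles replicated chromosomes in dividing cells, fell from 378, 360 and 304 to 77.9, 77.5 and 61.0 normalised counts (log2 fold change -2.27, SE 0.19, adjusted p = 2.48e-31). Top2b, the form that nondividing cells also use, was at 90.8% of WT (-0.14, adjusted p = 0.372). Top1, which relaxes DNA ahead of the fork and in transcription, was called higher, at 123% of WT (0.30, adjusted p = 0.0397), a call lost without any 1 library other than WT replicate 3 (adjusted p = 0.0561 to 0.201). Mcm8 and Mcm9, which form a helicase of DNA repair, were not called (-0.64, adjusted p = 0.276, and -0.00, 0.992), and the ratio of Mcm2 to Mcm9 per length was 15.6 ± 2.72 in WT against 10.3 ± 0.72 in Pbrm1 cKO (SD, n = 3 each). A total of 8 such ratios were computed, and 7 did not overlap between the groups (exact two-sided permutation p = 0.10 each, Benjamini-Hochberg adjusted 0.114). The pairs use genes chosen with earlier results known, so the lack of overlap largely follows from the single-gene values. The count is a description only, and no share over other gene pairs was computed.

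**Figure D4:**
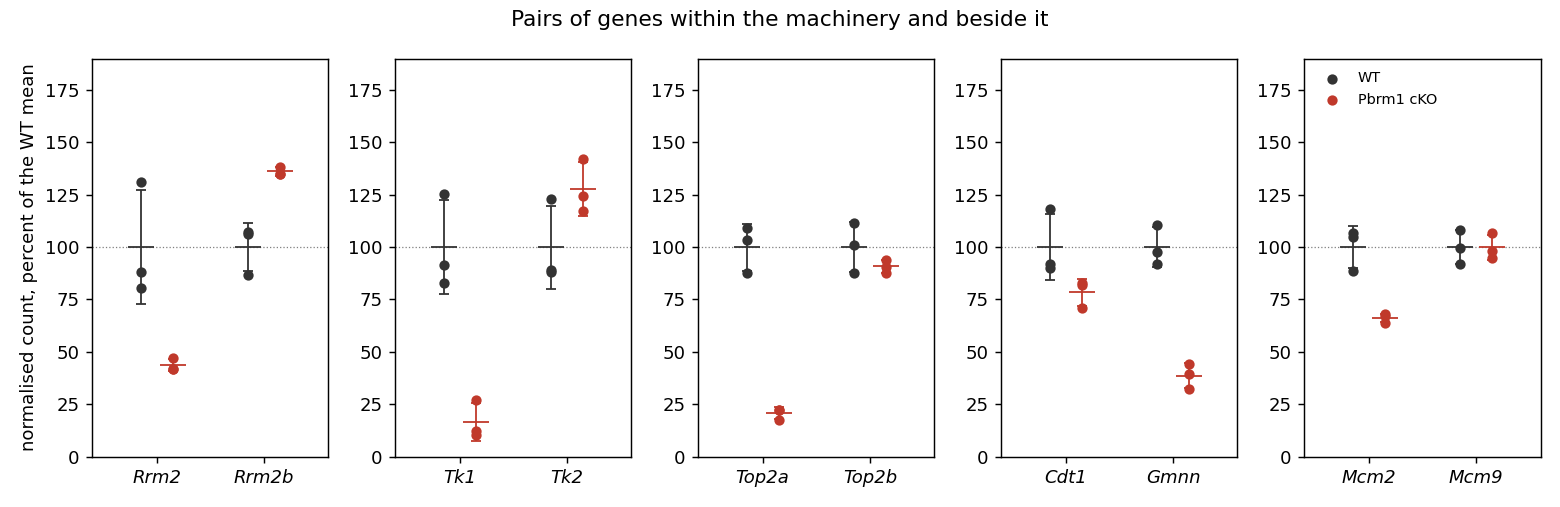
Normalised counts as a percent of the gene's WT mean for 5 pairs of genes in WT (dark) and Pbrm1 cKO (red), with each of the 3 libraries as a point and mean ± SD as bars. Rrm2, Tk1, Top2a, Gmnn and Mcm2 have Pbrm1 cKO means of 16.6% to 66.3%, and Cdt1, Top2b, Mcm9, Tk2 and Rrm2b of 78.5% to 136%.

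Of the 92 genes of the wider set, 47 were lower (51.1%, beside 15.2% of all genes tested), 10 higher (10.9%, beside 15.9%) and 35 not called, with a median log2 fold change of -0.37. Among 13 firing and fork factors, 8 were lower and 1 higher. Ticrr, which brings CDC45 to the ring, fell from 38.5, 35.5 and 34.6 to 9.87, 7.19 and 5.63 normalised counts (-2.27, adjusted p = 2.09e-05). Clspn, the claspin that couples the fork to checkpoint kinase, fell to 13.2% of WT (-2.93, adjusted p = 9.44e-14), and Rif1, which opposes origin firing, rose (0.33, adjusted p = 0.0262). The call of Rif1 was lost with the length trend removed (0.20, adjusted p = 0.188) and without any 1 of 5 libraries (0.0521 to 0.149), all but WT replicate 1.

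Chromatin assembly behind the fork was split. Of 9 genes, 5 were lower and 0 higher by DESeq2. Asf1b, a histone chaperone of dividing cells, fell to 28.5% of WT (-1.82, adjusted p = 6.49e-08), Chaf1b of the CAF-1 chaperone to 39.5% (-1.34, adjusted p = 3.26e-09) and Uhrf1, which guides maintenance methylation, to 49.2% (-1.02, adjusted p = 5.61e-10). The maintenance methyltransferase Dnmt1 (-0.05, adjusted p = 0.792) and the FACT subunit Supt16 (0.01, 0.963) were not called.

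Of 24 further nucleotide genes, 8 were lower and 3 higher. Cmpk2, a mitochondrial kinase also known as an interferon-stimulated gene, rose from 98.3, 151 and 145 to 329, 333 and 360 normalised counts (log2 fold change 1.38, adjusted p = 4.19e-12). Cad, the first enzyme of pyrimidine synthesis, rose from 1999, 1837 and 2212 to 3380, 3313 and 3294 (0.72, adjusted p = 5.96e-12). Samhd1, which degrades dNTPs in resting cells, was at 106% of WT (0.08, adjusted p = 0.675). The 3 higher genes are 12.5% of this list, below the 15.9% called higher among all genes tested.

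Regulators of CDT1 and of the G1/S step were read last. Dtl, the adaptor that directs CDT1 for degradation in S phase, fell to 41.6% of WT (log2 fold change -1.26, adjusted p = 4.15e-10), and Fbxo31 rose (0.52, adjusted p = 0.00778), a call lost without WT replicate 2 (adjusted p = 0.0513) or Pbrm1 cKO replicate 2 (0.11). Among 22 G1/S genes, 14 were lower (63.6%) and 4 higher (18.2%), the latter share near the 15.9% called higher among all genes tested. E2f7 (-2.74) and E2f8 (-1.43), the atypical E2F genes that are themselves E2F targets, fell, and E2f1, an activator, fell from 102, 76.6 and 87.6 to 52.3, 60.7 and 49.7 normalised counts (-0.70, adjusted p = 0.0221). The call of E2f1 was lost without any 1 library other than WT replicate 2 (adjusted p = 0.0539 to 0.109). E2f4, an E2F that represses its targets in resting cells, rose to 134% of WT (0.42, adjusted p = 0.00102). E2f2 rose from 2.14, 2.22 and 3.24 to 12.8, 19.2 and 10.3 (2.48, SE 0.82, adjusted p = 0.0108), at counts close to the floor of 3 counts per library, and lost its call without Pbrm1 cKO replicate 2 (2.19, adjusted p = 0.117).

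Mki67, a marker of cycling cells, had 72.7, 88.8 and 78.9 normalised counts in WT, against 46.4, 41.5 and 33.8 in Pbrm1 cKO (log2 fold change -0.98, adjusted p = 0.00209). Cdkn1a, the p21 inhibitor of S phase kinases, had 315, 373 and 947 in WT, against 1397, 1515 and 1356 in Pbrm1 cKO (1.38, SE 0.50, adjusted p = 0.0212). The groups were separate, but WT replicate 3 lay far above the other WT libraries. The call was lost on leaving out any 1 library other than WT replicate 3 (adjusted p = 0.0535 to 0.117).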

How the data were processed

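Per the labels and the study's methods, the authors trimmed reads with cutadapt, mapped them with HISAT2 to GRCm38 and counted them per gene with featureCounts 1.6.4 (reverse-stranded, per the file headers). The deposited values are raw counts per gene and library, beside the summed exon length of each gene as the authors' counter gave it. Reads that overlap several genes or map to several places are left out by that program's defaults. The labels describe a total RNA kit with depletion and the study's methods poly(A) selection, so the captured RNA classes are not settled.

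Symbols were found for 54079 of 54232 identifiers. DESeq2 1.42.0 in R 4.3.3 was fitted to all genes and all 6 libraries (Wald test, no covariates, unshrunken log2 fold change, Benjamini-Hochberg threshold 0.05). Unless another tool is named, adjusted p-values are from it, and normalised counts are counts divided by its size factors. The alternatives were edgeR 4.0.16, limma 3.58.1 voom, other scalings and filters, a test against 0.58, removal of a length trend, a replicate block and leaving out each library. Simulated counts with 200 of 28552 genes changed gave recovery of 59.7%, 91.0% and 100% at log2 sizes of 0.58, 1 and 2, with 24 false calls (12.6% of calls). This false share was above the threshold of 0.05. The changed genes were drawn from the more abundant ones and were a far smaller share than the genes called in these data. The simulated rates may therefore not carry over to them. SDs and SEs describe the spread between libraries. A count of 0 allows up to 3 counts, a limit that covers counting error only.

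The 48 genes, the lists and the rule for named genes were chosen with earlier results of these data known. The rule names the 48 genes, Pbrm1, a set of counterparts, the lowest and highest gene of each wider list and at most 3 defining markers per cell type. One gene covered by it is left out of the text. Markers beyond 3 per list and other genes outside the rule were named after their values were seen. Promoter sequences are from RefSeq (GRCm38.p6).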

Additional observations from a re-analysis of the deposited data

How the results depend on the processing

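Over 14 settings other than the test against 0.58, 37 of the 43 called replication genes kept their call and direction under each, 6 lost it under at least 1 (Gins1, Orc4, Pold2, Pold3, Rfc2 and Tyms), 3 gained one (Cdt1, Orc3 and Rpa3) and 0 changed direction. The test against 0.58 left 14 of them lower and 0 higher, and 15 lower and 1 higher of the wider 92. Same-numbered libraries did not vary together (correlations of their deviations from the group means 0.04, -0.03 and -0.00). With 3 libraries per group, such values cannot show that no preparation or batch was shared. With a replicate block 37 of the 48 were lower and 1 higher, with 4 of the wider set higher. Leaving out 1 library gave 38 to 44 lower genes of the 48, a median of -0.72 to -0.69, and 39 to 45 lower and 3 to 12 higher genes of the wider set. The medians of the steps ranged from -1.47 to -1.25 (licensing), -1.34 to -1.01 (dNTP supply), -0.92 to -0.83 (helicase activation), -0.91 to -0.77 (Okazaki fragment maturation), -0.75 to -0.65 (single-strand binding), -0.69 to -0.57 (polymerases and primase), -0.69 to -0.58 (MCM2-7 helicase), -0.56 to -0.46 (clamp and clamp loader) and -0.53 to -0.44 (origin recognition). The cause of these shifts was not tested, and each of these fits had fewer libraries. Uncalled estimates near 0 changed sign. They were Mcm9 (0.01 with TMM size factors, total count scaling or edgeR without a filter, and 0.05 without WT replicate 2, 0.04 and 0.01 without Pbrm1 cKO replicates 2 and 3), Samhd1 (-0.03) and Supt16 (-0.01) with the length trend removed, Supt16 also without WT replicate 2 (-0.06) or Pbrm1 cKO replicate 1 (0.00), and, over the fits that left out 1 library, Dnmt1 (-0.13 to 0.06), Chtf8 (-0.09 to 0.19) and Pole4 (-0.11 to 0.01). With the length trend removed, Top1 lost its call (0.17), Pold4 (0.41) and Top2b (-0.30) gained one, and without independent filtering Top1 had an adjusted p of 0.0646 in DESeq2. Scaling moved the median of all genes by at most 0.02 on the log2 scale. Depth limits the least abundant genes most, and 5 of the 48 had a mean under 100 normalised counts.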
